A study of Arabidopsis thaliana with 6 samples.

Results

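The unirradiated state of seedlings with a mutated ARGONAUTE2 gene was examined by setting the mock-treated arrays of 2 ago2 lines, ago2a and ago2c, against the mock-treated array of the Columbia wild type (WT). These are 3 of the 6 arrays of the study, chosen by genotype and treatment and not by any measured value. The seedlings were 14 days old, carried either an ago2 mutation or no mutation, and were not irradiated. The remaining 3 arrays held the same lines 24 hours after gamma irradiation with 200 Gy (50 Gy per hour for 4 hours), and served here as a second look at the loci found in mock seedlings. RNA came from at least 10 whole seedlings per isolation and was pooled from 3 independent batches before it was hybridised, so each line is 1 mock array, the 2 lines stand in for replicates of the mutant genotype, and both are set against the same single WT array. What kind of mutation each line carries is not stated in the labels.

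ARGONAUTE proteins bind small RNAs and use them to find matching transcripts or chromatin. In Arabidopsis AGO1 carries most microRNAs, AGO4 and AGO6 act in RNA-directed DNA methylation, and AGO7 and AGO10 each have a preferred microRNA. AGO2 is known for antiviral and antibacterial defence, in which it is induced, and for binding small RNAs made at DNA breaks.

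Each value below is a scaled signal, the background-corrected brightness of a locus's brightest probe on a scale on which the 75th percentile of every array is 1000, or a log2 difference between an ago2 line and WT on that scale. A probe is called dim on an array where the scanner software did not find it well above background. On the mock arrays 72.5% of probes in ago2a, 70.5% in ago2c and 72.7% in WT were well above background. None was saturated, and the test covered 20171 loci. The labelled tissue, whole seedling, was borne out by markers of both shoot and root. All 27 photosynthesis genes and all 9 guard cell and trichome markers were well above background on each mock array, as were 20, 18 and 19 of 21 root markers in ago2a, ago2c and WT, while none of 6 seed storage genes was on any. Of 4 floral organ markers, 3, 4 and 4 were also well above background in ago2a, ago2c and WT. In bulk RNA of whole seedlings, fewer cells of a type and less RNA per cell cannot be told apart. WT and ago2a shared slide 1, whereas ago2c was on slide 2, so the ago2a value is also the value within a slide. Where a locus had several bright probes, the other probes moved by over 2-fold against the brightest in 0.142% of 5615 loci between ago2a and WT, but in 13.2% between ago2c and WT and in 17.7% between ago2a and ago2c. Between ago2a and WT after irradiation, both also on slide 1, the share was 12.8%. The part of this probe disagreement in the ago2c values was not tested.

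AGO2, the gene mutated in both lines, comes before all others because its level checks the labels. AGO2 (AT1G31280) had a scaled signal of 2.89 in ago2a and 9.13 in ago2c, against 115 in WT, and was dim in both mutant lines. Where every array of a genotype was dim, a fold is given as a bound, in which each dim array counts as the lowest signal well above background on that array (14.0 in ago2a, 17.2 in ago2c and 13.8 in WT) or as the locus's own signal if higher. On this scale AGO2 was at least 7.44-fold lower in the mock-treated mutants and at least 17.9-fold lower after irradiation. AGO3 (AT1G31290), the adjacent gene and closest relative of AGO2, had a brighter probe at 65.0% of the WT signal in ago2a and 70.1% in ago2c, but a second probe at 113.6% and 48.0%, so the 2 probes disagreed for ago2a. AGO5 (AT2G27880), known from germline tissue, had 18.5 in ago2a and 24.4 in ago2c, against 8.95 in WT, where it was dim, and was thus just above background in the mutants. AGO6 gave 20.8 in ago2a and 20.5 in ago2c, against 16.6 in WT, with log2 differences of 0.32 and 0.30. AGO1, AGO4 and AGO7 stayed close to WT. Their log2 differences in ago2a and ago2c were 0.08 and -0.11 for AGO1, -0.03 and 0.20 for AGO4 and 0.14 and 0.17 for AGO7.

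Across all loci no difference between the ago2 lines and WT in mock seedlings passed the test. With limma, of 20171 loci 0 passed in the higher direction and 0 in the lower one at an adjusted p below 0.05 (smallest adjusted p = 0.873), and 140 loci (0.694%) had an unadjusted p under 0.05. By chance alone 1009 loci would be expected under that unadjusted cut, which is more than were found. The limma test takes its spread from how far ago2a lies from ago2c within each treatment, with 2 residual degrees of freedom, and the single WT array adds none, so the p-values measure only how far these pooled samples lie apart. Every locus named below is therefore given by its values and not as a tested change.

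The 2 lines departed from WT in different directions more often than in the same one. Both had higher values than WT at 4023 loci (19.9%) and lower values at 4096 (20.3%), and they lay on opposite sides of WT at the other 12052. Loci were counted by measured signal, where the brighter genotype was well above background. At least 2-fold apart from WT in both lines were 23 higher loci (0.114%) and 53 lower loci (0.263%). Taken singly, ago2a had 247 higher (1.22%) and 89 lower loci (0.441%) and ago2c 156 higher (0.773%) and 769 lower (3.81%). Between the lines, ago2a was at least 2-fold above ago2c at 1163 loci (5.77%) and at least 2-fold below it at 211 (1.05%). Just inside the 2-fold limit lay CYP82G1, with log2 differences of 1.04 and 1.13. Just outside lay PP2-B14, with 1.14 and 0.99, and AT2G05350, with -0.99 and -1.80.

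**Figure D1:**
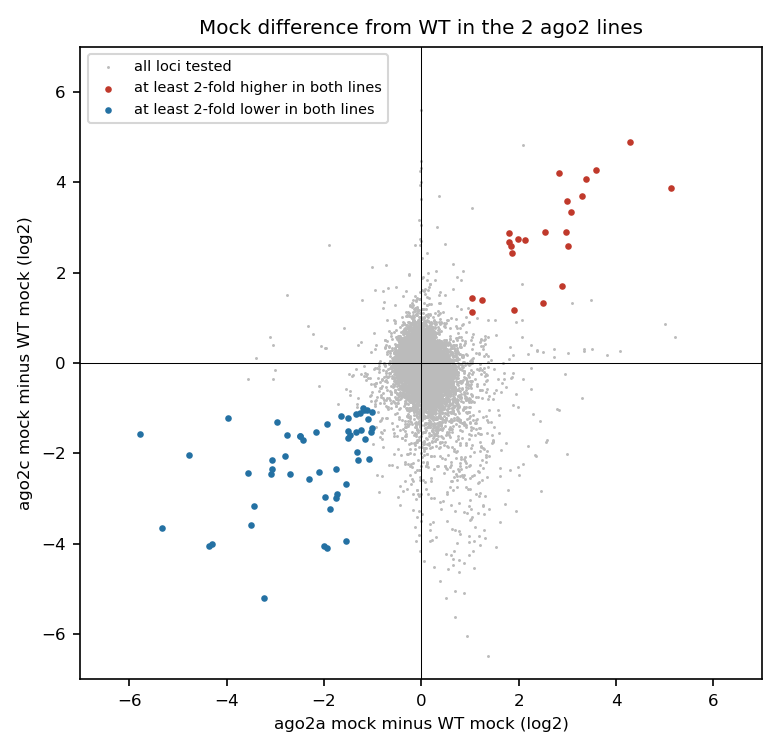
Log2 difference of ago2a mock from WT mock (x axis) against that of ago2c mock from WT mock (y axis) for the 20171 loci tested, each point 1 locus. Both axes share the same WT array, and the red and blue points are the 23 and 53 loci at least 2-fold higher or lower in both lines, while the long arm towards lower right is made of loci higher in ago2a and lower in ago2c.

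The shared loci were mostly weakly expressed. The brighter genotype had a median scaled signal of 34.7 over the 23 higher loci and 43.5 over the 53 lower loci, against a median of 657 in WT over all loci. WT was dim at 21 of the 23 higher loci, and both mutant lines were dim at 30 of the 53 lower loci. Measured signals there reach into background, and not all of these loci were 2-fold apart by the bound. AT5G46295 (at least 22.8-fold higher) and AGO2 (at least 7.44-fold lower) were. AT1G09483 (at least 1.55-fold higher) and AT3G21940 (at least 1.32-fold lower) were among those not shown to be. Well above background on all 3 mock arrays were 2 of the higher and 8 of the lower loci, which is 0.0104% and 0.0416% of the 19219 loci that bright. At 1.5-fold in both lines the counts were 45 higher (0.223%) and 110 lower (0.545%).

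Of the 12 loci most lower in both lines, 3 carried most of the signal in WT: PR1, DXPS1 and AGO2 itself. PR1 (AT2G14610) encodes a secreted antimicrobial protein and is the standard marker of the salicylic acid response. It had 33.3 in ago2a and 8.40 in ago2c, against 312 in WT, so that it was 9.36-fold lower in ago2a and, being dim in ago2c, at least 18.1-fold lower there. DXPS1 (AT3G21500), named for 1-deoxy-D-xylulose 5-phosphate synthase, the entry step of the plastid isoprenoid pathway, had 52.6 in ago2a and 80.6 in ago2c, against 446 in WT. It was 8.47-fold lower in ago2a and 5.53-fold in ago2c, with a mean log2 difference of -2.77 ± 0.60 (SE of the limma fit, n = 2 lines against 1 array), and was well above background on every array.

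The other 9 were dim in both lines. AT1G01450 had 2.76 in ago2a and 3.43 in ago2c, against 57.0 in WT, and AT1G75920 had 2.99 in ago2a and 3.64 in ago2c, against 58.9 in WT. AT3G28899 had 3.66 in ago2a and 3.44 in ago2c, against 41.0 in WT, at least 2.64-fold lower, and AT3G21940 was at least 1.32-fold and AT4G10370 at least 1.51-fold lower. WT lay above both lines at each of these loci, and the mutant values sat at the floor of the arrays. FPF1, which promotes flowering, had 8.80 in ago2a and 14.7 in ago2c, against 74.1 in WT, at least 4.78-fold lower. The remaining loci were RALFL2, a peptide of the rapid alkalinization factor type (at least 2.04-fold), AT5G36001 (at least 2.21-fold) and MKK8, a MAP kinase kinase (at least 1.55-fold).

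The higher loci had a single member with a sizeable signal. AT5G46295 had 556 in ago2a and 233 in ago2c, against 15.8 in WT, where it was dim, and was at least 22.8-fold higher. AT2G34370 had 58.1 in ago2a and 88.5 in ago2c, against 2.98 in WT, at least 5.21-fold higher, and AT4G28088 had 48.0 in ago2a and 61.5 in ago2c, against 8.24 in WT, at least 3.95-fold higher. Both lines lay above WT at these 3 loci. TPS2, of the trehalose phosphate synthase family, had 22.8 in ago2a and 34.5 in ago2c, against 2.86 in WT, at least 2.04-fold higher. The other 8 were at least 3.63-fold (AT1G24390), 2.88-fold (AT1G56553), 2.52-fold (AT4G08760), 2.44-fold (AT4G08800), 2.19-fold (AT5G38310), 2.09-fold (AT4G26280), 1.68-fold (AT4G21895) and 1.55-fold (AT1G09483) higher, and WT was dim at each.

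**Figure D2:**
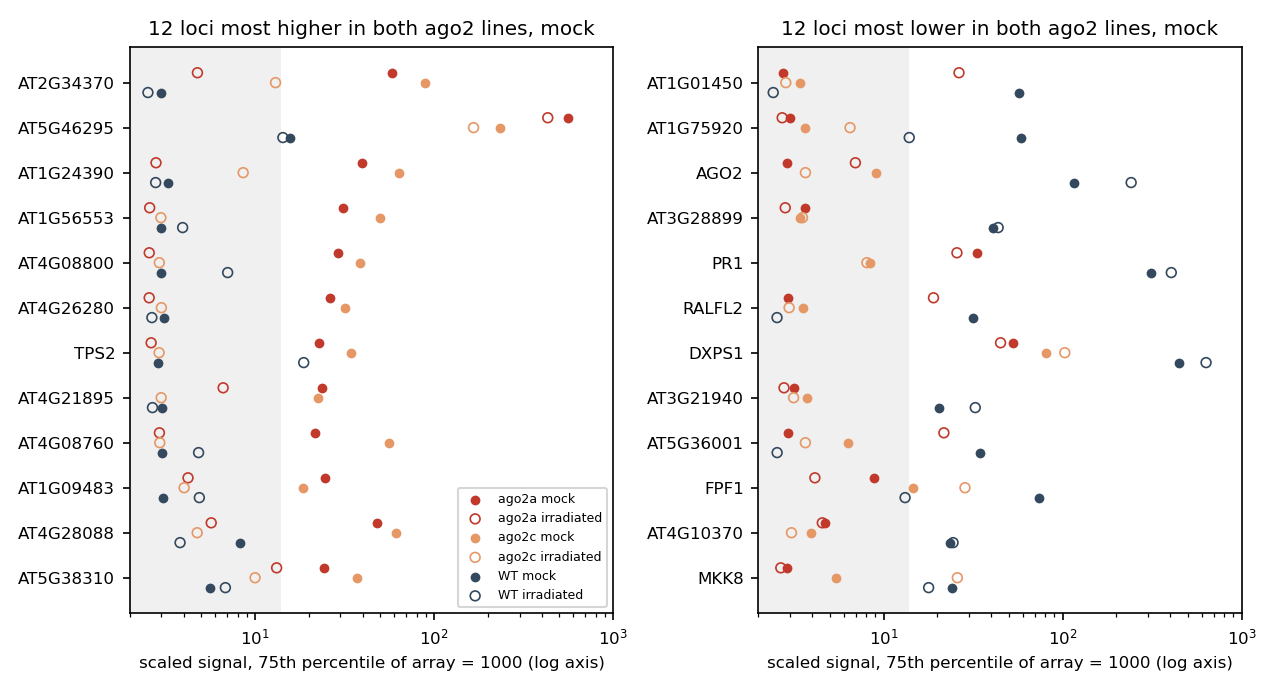
Scaled signal (x axis, log scale, 75th percentile of each array at 1000) of the 12 loci most higher (left) and the 12 most lower (right) in both ago2 lines, with 1 point per array, filled for mock and open for irradiated seedlings. Signals in the grey band lie under 13.8, the lowest signal well above background on the WT mock array; PR1, DXPS1, AGO2 and AT3G28899 keep their distance from WT on the open points, whereas most loci on the left do not.

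The irradiated arrays share no array with the mock comparison, but they took part in the choice of loci, since a locus had to be well above background on at least 2 of all 6 arrays. That filter was met on the mock arrays alone by 23 of the 53 lower loci, whereas the other 30 met it through an irradiated array, in cases such as AGO2 and AT3G28899 through that of WT. Part of the recurrence below is therefore set by the filter. All loci, the comparison used below, also had more signal, with a median of 657 in WT against 43.5 at the lower loci. The lower loci were low in ago2c mock, whose differences from WT went with the irradiated ones over all loci. Spearman's rho was 0.73 with ago2c irradiated and 0.61 with ago2a irradiated, and the part of this in the recurrence was not tested. Of the 53 lower loci, 29 (54.7%) were lower in both irradiated lines as well, where 34.1% of all loci were, 11 were higher in both and 13 differed between the lines. At least 2-fold lower again in both lines were 16 of the 53 (30.2%), where 5.33% of all loci were. Both irradiated lines were dim at 12 of these 16, and by the bound 4 of the 12 were at least 2-fold lower and 8 were not. Among the 23 lower loci that met the filter on mock arrays alone, a restriction added after the data were seen, 12 (52.2%) were lower in both irradiated lines and 5 (21.7%) at least 2-fold lower by measured signal, against 33.9% and 5.16% of 19801 loci that met it likewise. DXPS1 had 45.0 in ago2a and 103 in ago2c, against 633 in WT after irradiation, PR1 had 25.7 in ago2a and 8.07 in ago2c, against 405 in WT, and AT3G28899 had 2.82 in ago2a and 3.53 in ago2c, against 43.7 in WT. These loci kept WT above both lines in both treatments. The other 13 were AGO2, AT1G75920, AT3G21940, AT4G10370, AT5G08250, AT1G06120, AT5G55410, AT1G60750, AT2G24780, AT1G75160, TRM23, UMAMIT25 and AT1G15640. ATCHX13, a cation/proton exchanger, lies outside the 12 most lower loci and had opposite signs in the 2 treatments. In mock seedlings it had 2.80 in ago2a and 19.0 in ago2c, against 44.0 in WT. After irradiation it had 24.1 in ago2a and 40.4 in ago2c, against 2.45 in WT.

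All 23 higher loci met the filter on the mock arrays alone, so their recurrence and that of the 53 lower loci are not on the same footing. In irradiated seedlings 9 of them (39.1%) were higher in both lines, where 48.4% of all loci were, 10 were lower in both and 4 differed between the lines. At least 2-fold higher again in both lines, where 0.312% of all loci were, was AT5G46295 alone, with 431 in ago2a and 166 in ago2c, against 14.3 in WT. No irradiated array was well above background at 13 of the 23 loci, so most of these values lay at the floor.

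**Figure D3:**
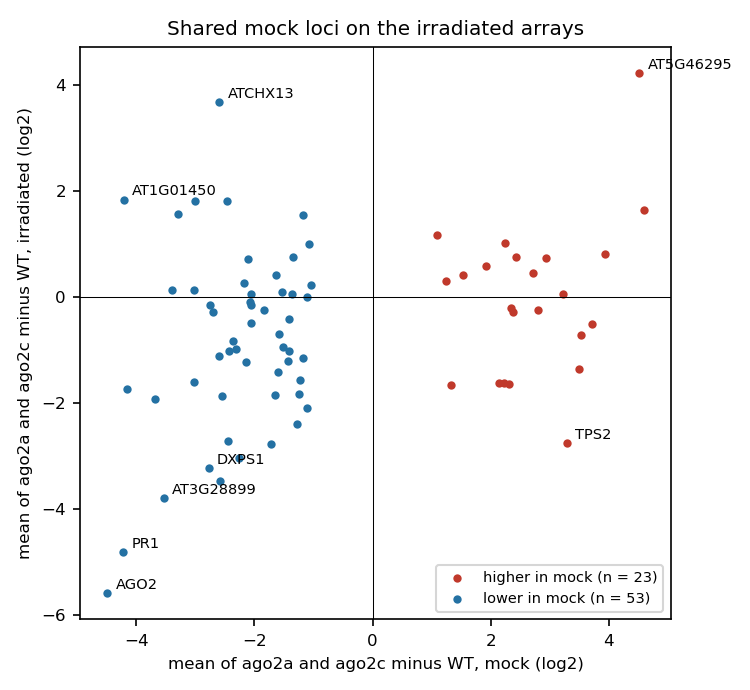
Mean log2 difference of the 2 ago2 lines from WT in mock seedlings (x axis) and in irradiated seedlings (y axis) for the 76 loci at least 2-fold apart from WT in both mock lines, each point 1 locus. The x axis values chose the loci, and brightness on the irradiated arrays helped 30 of the lower ones to pass the filter. AGO2, PR1, DXPS1 and AT3G28899 lie lower left and AT5G46295 upper right, while TPS2, AT1G01450 and ATCHX13 have the opposite sign after irradiation.

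Loci well above background on all 3 mock arrays were taken at a lower threshold, 1.5-fold, so their sizes are not set against those above. Among the 19219 loci well above background on all 3 mock arrays, and after leaving out those with a bright probe of opposite sign, 17 (0.0885%) were higher by 1.5-fold or more in both lines and 39 (0.203%) were lower by that much. The loci named in this paragraph were picked from these after their values were seen. AT1G77940 had 10231 in ago2a and 13323 in ago2c, against 5817 in WT, and 11033 in ago2a and 13198 in ago2c, against 5050.2 in WT after irradiation. AT1G25682 had 1368 in ago2a and 1571 in ago2c, against 911 in WT, and 1479 in ago2a and 1445 in ago2c, against 722 in WT after irradiation. AT3G21460 had 259 in ago2a and 258 in ago2c, against 149.8 in WT, and 165 in ago2a and 193 in ago2c, against 74.8 in WT after irradiation. At these 3 loci both lines lay above WT in both treatments. Over all 17 higher loci, 8 (47.1%) were higher in both irradiated lines, where 48.4% of all loci were, and 6 were lower in both. The locus furthest above WT in both mock lines, AT5G20640, was among those 6, with 69.3 in ago2a and 76.9 in ago2c, against 29.0 in WT in mock seedlings, and 21.7 in ago2a and 23.7 in ago2c, against 71.0 in WT after irradiation. NAC060 was another, with log2 differences of 0.98 and 0.91 in mock seedlings and of -0.84 in ago2a and -0.89 in ago2c after irradiation. NUDT24, a nudix hydrolase, had 59.0 in ago2a and 64.0 in ago2c, against 36.1 in WT. MRD1, named for its lower level in the mto1 mutant, had 1745 in ago2a and 98.9 in ago2c, against 54.2 in WT, with ago2c much closer to WT than ago2a. CYP82G1, a cytochrome P450 of terpenoid synthesis, had 64.3 in ago2a and 68.6 in ago2c, against 31.2 in WT.

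The loci named here from the 39 lower ones were likewise picked after their values were seen. ARP9, an actin-related protein gene, had 216 in ago2a and 299.8 in ago2c, against 677 in WT, and 292 in ago2a and 339 in ago2c, against 636 in WT after irradiation. BPS3, a gene of the BYPASS family, had 910.2 in ago2a and 172 in ago2c, against 2664 in WT, and the lines were far apart from each other. NIT2, a nitrilase that can release the auxin indole-3-acetic acid from its nitrile, had 765 in ago2a and 637 in ago2c, against 1172 in WT, and 453 in ago2a and 382 in ago2c, against 1761 in WT after irradiation. The lines lay below WT at ARP9 and NIT2 in both treatments. Over all 39 lower loci, 22 (56.4%) were lower in both irradiated lines, where 34.1% of all loci were, and 7 were higher in both. The relation of ago2c mock to the irradiated differences, given above, applies to these loci as well. GA3OX2, which makes active gibberellin, had 46.5 in ago2a and 34.3 in ago2c, against 83.9 in WT, and TH8, an h-type thioredoxin, had 214 in ago2a and 239 in ago2c, against 399 in WT. CYCA3;1, an A-type cyclin, had 90.3 in ago2a and 98.0 in ago2c, against 172 in WT, and 129.8 in ago2a and 178 in ago2c, against 146 in WT after irradiation, where the lines lay on both sides of WT. The sugar transporter gene SWEET10 had 55.0 in ago2a and 51.2 in ago2c, against 94.0 in WT, and the malic enzyme gene NADP-ME3 had 77.5 in ago2a and 79.9 in ago2c, against 149 in WT.

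Some of these loci lay near each other on a chromosome. Of the 122 loci that met either rule and have a place in the gene order, 15 lay within 10 genes of another one, in 15 pairs, of which 13 shared a direction. Most of these pairs came from a single group on chromosome 4. How many pairs as many loci drawn from all those measured would give was not computed. On chromosome 4, AT4G22470, AT4G22490, AT4G22513, AT4G22517 and AT4G22520 were all lower within 10 genes, with AT4G22490 at 2594 in ago2a and 2274 in ago2c, against 4834 in WT and AT4G22517 at 492 in ago2a and 497 in ago2c, against 852 in WT. After irradiation AT4G22490 and AT4G22517 were closer to WT, with log2 differences of -0.09 in ago2a and -0.04 in ago2c for AT4G22490, and of -0.40 in ago2a and 0.11 in ago2c for AT4G22517. AT4G22470 was further below WT, with -1.47 and -0.62 in mock seedlings and -1.86 in ago2a and -1.97 in ago2c after irradiation. On chromosome 3, AT3G16660 and AT3G16670 were both lower, while AT3G21460, which was higher, lay 8 genes from DXPS1, which was lower, and NAC060, which was higher, lay 2 genes from NIT2.

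The loci on both sides of AGO2 on chromosome 1 were examined as a group, since they lie near the mutated gene. Of the 20 genes before and the 20 after it 19 were measured. Both lines were higher at 1 of these (5.26%) and lower at 4 (21.1%), against 19.9% and 20.3% of all loci. The 4 were AGO3, AT1G31310, AT1G31335 and AT1G31430, and the medians of the group were -0.11 in ago2a and 0.06 in ago2c. AT1G31310, 4 genes from AGO2, was the only one past 2-fold, with 42.3 in ago2a and 63.4 in ago2c, against 161 in WT. After irradiation it had 42.9 in ago2a and 38.4 in ago2c, against 30.4 in WT, with WT below both lines.

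The gene lists were described next, by counts and medians beside those of all loci, whose medians were -0.03 in ago2a and 0.04 in ago2c. Of 30 lists with measured members, 8 had a median of the same sign in both lines and 22 had opposite signs. The list of salicylic acid and defence genes parted the lines most. Its median was 0.64 in ago2a and -0.86 in ago2c, and 19 of its 21 members lay above WT in ago2a and below WT in ago2c, a pattern found at 24.0% of all loci. The biosynthetic gene ICS1 had 1225 in ago2a and 200.3 in ago2c, against 702 in WT. The regulator CBP60G had 3212 in ago2a and 592 in ago2c, against 1897 in WT, and PBS3, which acts after ICS1, had 2979 in ago2a and 245 in ago2c, against 1307 in WT. ALD1, of pipecolic acid synthesis, had 521 in ago2a and 16.4 in ago2c, against 212 in WT, and was dim in ago2c, at least 12.3-fold lower there. At each of these genes ago2a was the highest and ago2c the lowest array. PAD3, the last enzyme of camalexin synthesis, had 1384 in ago2a and 196 in ago2c, against 291 in WT.

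PR1 stood outside this split, since it was lower in both lines, and it was the only member past 2-fold in both. In ago2a its low value of 33.3 stood beside higher values of the other pathogenesis-related genes, with BGL2 (PR2) at 541 in ago2a and 86.6 in ago2c, against 139.8 in WT and PR5 at 502 in ago2a and 277 in ago2c, against 308 in WT. WRKY18 was the 1 member higher in both lines, with log2 differences of 0.44 and 0.09. The split between the lines recurred on the irradiated arrays, where 16 of the 21 members, all of them among the 19, again lay above WT in ago2a and below it in ago2c, against 4.34% of all loci in both treatments. The list medians there were 0.33 in ago2a and -0.78 in ago2c. In mock seedlings the list median lay between 0.59 and 0.68 in ago2a and between -0.87 and -0.59 in ago2c under 5 other normalizations and probe rules.

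**Figure D4:**
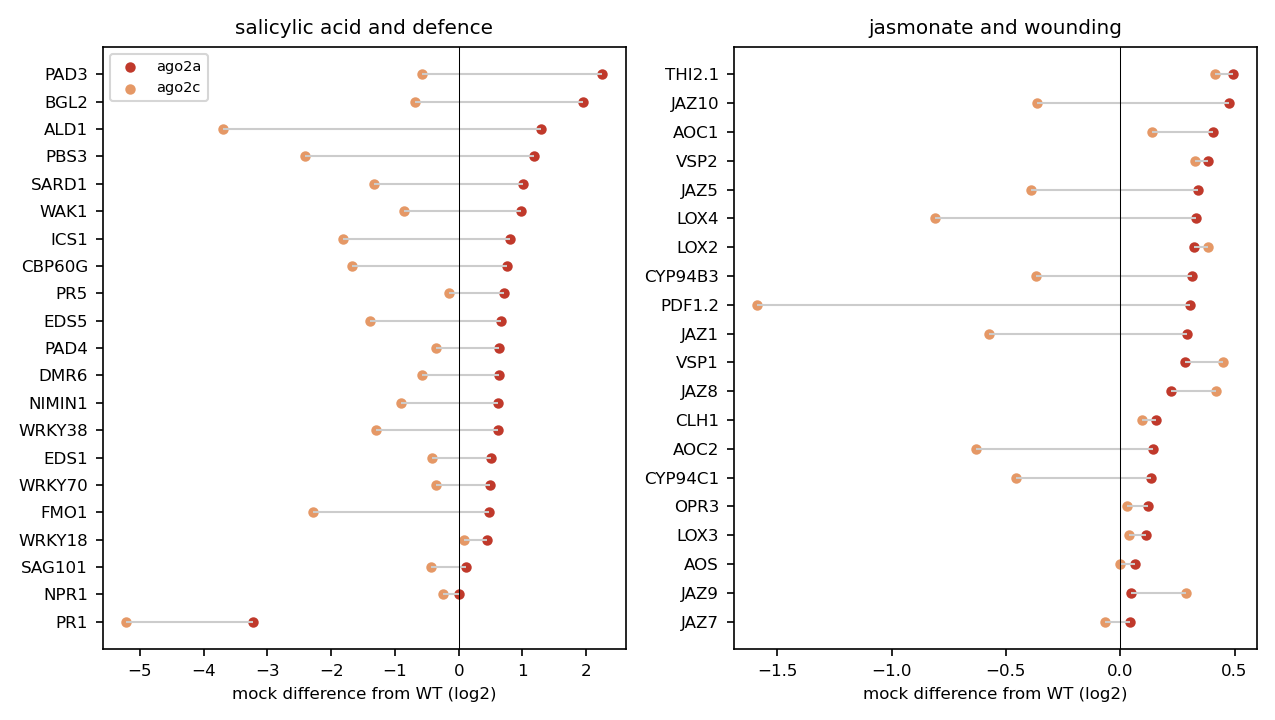
Log2 difference from WT mock for each measured member of the salicylic acid and defence list (left, 21 genes) and the jasmonate and wounding list (right, 20 genes), with 1 point for ago2a and 1 for ago2c joined by a line. On the left 19 genes have ago2a right of 0 and ago2c left of 0 while PR1 is far left in both lines; on the right 10 genes lie right of 0 in both lines. The x axes differ in range.

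Jasmonate and wounding genes were higher in both lines at 10 of 20 members and lower in both at none, where 19.9% and 20.3% of all loci were. All 20 lay above WT in ago2a, where 8865 of 20171 loci did, but only 10 in ago2c, where 11233 loci did. The storage protein gene VSP1 had 32326 in ago2a and 36370.2 in ago2c, against 26600.1 in WT, and VSP2 had 21104 in ago2a and 20279 in ago2c, against 16185 in WT. LOX2, which starts jasmonate synthesis in leaves, had 18197 in ago2a and 19026 in ago2c, against 14569.7 in WT, and the thionin gene THI2.1 had 162 in ago2a and 154 in ago2c, against 115 in WT. These 4 lay between 1.22-fold and 1.41-fold above WT. PDF1.2, which answers to jasmonate together with ethylene, had 519 in ago2a and 139.7 in ago2c, against 420.0 in WT, and so differed between the lines. The list median was 0.29 in ago2a and 0.01 in ago2c, and the ago2c value turned to -0.24 when probes were averaged and to -0.02 after quantile normalization. After irradiation 8 of the 20 genes were higher in both lines and 7 lower, where 48.4% and 34.1% of all loci were.

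In the list for abscisic acid, drought and cold, 11 of 27 genes (40.7%) were higher in both lines and 3 (11.1%) lower, where 19.9% and 20.3% of all loci were. Above WT lay 21 of the 27 in ago2a and 14 in ago2c, where 8865 and 11233 of 20171 loci did. The list medians were 0.13 in ago2a and 0.08 in ago2c. With normexp background correction the ago2c value was 0.19, against 0.13 for all loci. With scaling to the array median it was 0.22, against 0.18 for all loci. After quantile normalization it was 0.08, against 0.08, and with the mean of probes 0.05, against -0.01. ERD10 had 14853 in ago2a and 22994 in ago2c, against 13006 in WT, RD29A had 4905 in ago2a and 5606 in ago2c, against 3982 in WT, and the cold regulator gene CBF1 had 473 in ago2a and 446 in ago2c, against 345 in WT. RD29B had 29.9 in ago2a and 40.4 in ago2c, against 26.2 in WT. Both lines lay above WT at these 4 genes, and RAB18, another marker of abscisic acid, lay below it with -0.14 and -0.20. After irradiation 14 of the 27 genes were higher in both lines and 5 lower, where 48.4% and 34.1% of all loci were.

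In the lists of small RNA pathways below, 58.3% to 68.2% of genes lay on opposite sides of WT in the 2 lines, where 59.7% of all loci did. Of 24 genes of small RNA biogenesis 6 (25.0%) were higher and 4 (16.7%) lower in both lines, against 19.9% and 20.3% of all loci. None of the 24 was 2-fold apart in both lines, and the list medians were -0.05 in ago2a and 0.20 in ago2c. DCL1, which makes microRNAs, had log2 differences of -0.01 and 0.60, and RDR6, which makes double-stranded RNA from transcripts, had -0.07 and 0.43. SQN, a cyclophilin that helps load ARGONAUTE, had 0.36 and 0.52, and HYL1, a partner of DCL1, had 0.19 and 0.39. Of 52 genes targeted by other microRNAs or trans-acting small RNAs 8 were higher and 9 lower in both, with medians of -0.09 and 0.14, and of 22 DNA methylation genes 3 were higher and 4 lower, with -0.12 and 0.24. Among the microRNA targets, CUC1, a boundary gene targeted by miR164, had -0.17 and -0.97, and NF-YA10, targeted by miR169, had -0.24 and -0.78.

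Targets of the copper microRNAs, counting MEMB12, were lower in both lines at 8 of 13 members (61.5%) and higher at 3 (23.1%). Of all loci 20.3% were lower in both lines and 19.9% higher. The median of the targets was -0.09 in ago2a and -0.18 in ago2c. It kept its sign in both lines under 5 other settings, in which it lay between -0.15 and -0.09 in ago2a and between -0.64 and -0.03 in ago2c. UCC2, a blue copper protein gene, had 623 in ago2a and 288 in ago2c, against 753 in WT. The laccase gene LAC17 had 589 in ago2a and 332 in ago2c, against 676 in WT, and LAC4 had 546 in ago2a and 517 in ago2c, against 723 in WT. LAC17 and UCC2 lay close to WT in ago2a and well below it in ago2c. MEMB12, a target of the complementary strand of a microRNA bound by AGO2, had -0.09 and -0.06. The 11 genes of the copper deficiency response did not share a direction, with medians of 0.21 and -0.10.

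Of 20 DNA damage response genes 2 (10.0%) were higher and 6 (30.0%) lower in both mock lines, against 19.9% and 20.3% of all loci. The list medians before irradiation were -0.10 in ago2a and 0.10 in ago2c. The ago2c median was 0.31 with normexp background correction, 0.24 with scaling to the array median and 0.22 after quantile normalization. The ago2c medians of all loci under the same settings were 0.13, 0.18 and 0.08. SMR7, a cyclin-dependent kinase inhibitor, had 211 in ago2a and 238 in ago2c, against 227 in WT, and PARP2 had 267 in ago2a and 297 in ago2c, against 270.2 in WT. NAC103, a factor downstream of SOG1, was the member furthest below WT in both, with 29.1 in ago2a and 25.9 in ago2c, against 38.0 in WT.

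In the growth and cell cycle lists 50.0% to 72.7% of members lay on opposite sides of WT in the 2 lines, where 59.7% of all loci did, and those with 1 sign were lower, where 20.3% of all loci were lower in both lines. None of 15 auxin and cytokinin response genes was higher in both lines and 6 (40.0%) were lower, with medians of -0.06 in ago2a and -0.23 in ago2c. Both signs held under 5 other settings, but the ago2c median was -0.02 with normexp background correction and -0.09 after quantile normalization or scaling to the array median. IAA19 had log2 differences of -0.06 and -0.29, and the conjugating enzyme gene WES1 had -0.10 and -0.42. None of 12 genes of the G2/M phase was higher in both lines and 5 (41.7%) were lower, with medians of -0.18 in ago2a and 0.0046 in ago2c. CDKB1;1 had -0.17 and -0.40 and CYCB2;1 had -0.74 and -0.04. Of 11 DNA replication genes 3 (27.3%) were lower in both lines, among them PCNA2 with -0.24 and -0.41. All 11 lay below WT in ago2a, where 11306 of 20171 loci did, so none could be higher in both. In ago2c 8 of the 11 lay above WT, and the list medians were -0.20 in ago2a and 0.15 in ago2c. Of 6 shoot meristem genes 3 were lower in both lines, with KNAT2 at 110.1 in ago2a and 109.9 in ago2c, against 140.0 in WT. All 6 lay below WT in ago2a and 3 above it in ago2c, with medians of -0.20 and 0.0040.

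Of 19 flowering time genes 3 (15.8%) were higher and 6 (31.6%) lower in both lines, against 19.9% and 20.3% of all loci. The other 10 (52.6%) lay on opposite sides of WT, where 59.7% of all loci did. The list medians were -0.14 in ago2a and 0.11 in ago2c. Flowering regulators held 1 member well below WT in both lines. SMZ, an AP2-type repressor of flowering targeted by miR172, had 70.9 in ago2a and 42.1 in ago2c, against 124 in WT, and 33.1 in ago2a and 29.5 in ago2c, against 74.6 in WT after irradiation, with WT above both lines in each treatment. FT, the mobile flowering signal, had -0.27 and -0.30, and AP1 had -0.39 and -0.27.

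Of 20 phosphate starvation genes 16 (80.0%) were above WT in ago2a and below it in ago2c, where 24.0% of all loci were, with medians of 0.43 and -0.34, and none of the 20 showed this on the irradiated arrays. The phosphate transporter gene PHT1;1 had 9858 in ago2a and 4556 in ago2c, against 6632 in WT. In the nitrate list 6 of 11 genes (54.5%) lay on opposite sides of WT, where 59.7% of all loci did. NRT2.1, the main high-affinity transporter, was dim in both lines and at least 1.52-fold lower, but had 21.5 in ago2a and 31.4 in ago2c, against 8.91 in WT after irradiation, with WT dim and below both lines. The other 10 lay within 1.5-fold of WT. Of 17 heat shock genes 7 (41.2%) were lower and 2 (11.8%) higher in both lines, against 20.3% and 19.9% of all loci. HSP17.6C had 458 in ago2a and 147 in ago2c, against 501 in WT. Of 22 flavonoid and anthocyanin genes 15 (68.2%) were above WT in ago2a and below it in ago2c, where 24.0% of all loci were. The list medians were 0.26 in ago2a and -0.14 in ago2c. In both lines 5 (22.7%) were higher and 1 (4.5%) lower, against 19.9% and 20.3% of all loci. Among those 5, the regulator gene TT8 had 70.0 in ago2a and 71.0 in ago2c, against 46.7 in WT.

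Markers of organs also differed between the lines, and their part in the list values was not tested. Photosynthesis genes had a median of -0.15 in ago2a and 0.34 in ago2c, with 26 of 27 on opposite sides of WT, where 59.7% of all loci were, but the ago2c median was -0.13 when probes were averaged and -0.03 under quantile scaling. Root markers had medians of 0.15 and -0.34, with 19 of 20 on opposite sides, against the same 59.7%. The 20 measured root markers summed to 10208.5 in ago2a and 7343 in ago2c, against 9312 in WT.

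**Figure D5:**
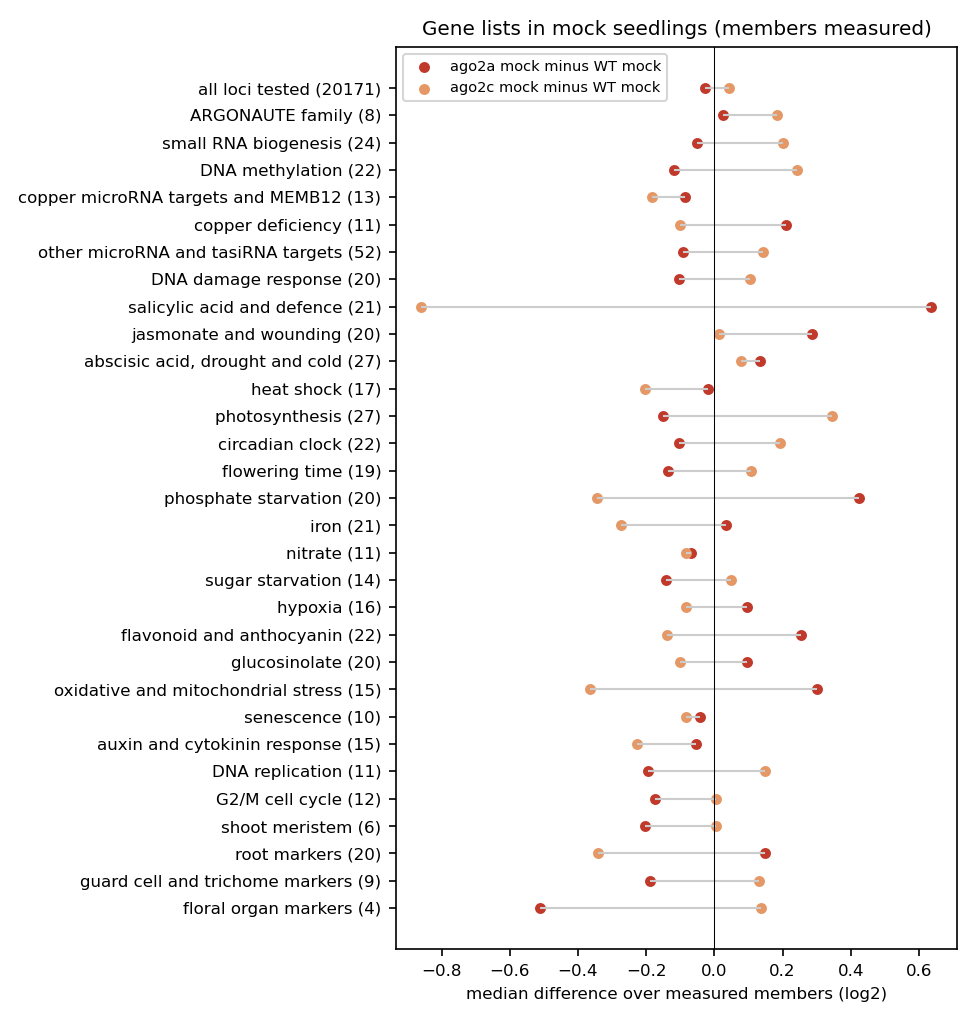
Median log2 difference from WT mock over the measured members of each of 30 gene lists, and over all loci at the top, for ago2a and ago2c, with the number of members in brackets. The 2 points of a list are joined; they lie on the same side of 0 for 8 lists, and the salicylic acid and defence list has the widest gap, with 0.64 in ago2a and -0.86 in ago2c.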

How the data were processed

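Cy3-labelled total RNA was hybridised to single-colour arrays of 43603 probes, 1 array per line and treatment, per the labels. Per the file headers, Feature Extraction 11.0.1.1 produced the deposited spot intensities. Of these the processed signal was taken, an intensity already background-corrected by that software. The authors' deposited value table holds a linear ratio, which equalled the processed signal divided by the array median and by a constant per probe in 99.99% of probes (SD of the log2 offset under 0.05). Its column medians lay between 0.878 and 1.06, the origin of the constant is unknown, and it served as an alternative.

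Control spots and outlier spots were left out, log2 signals were averaged per probe, a probe counting as well above background where most of its spots did, and the array's 75th percentile was subtracted. Probes were matched by unversioned accession to a gene table of assembly TAIR10.1, which named 34309 of 43550 probes. Probe positions and sequences were not used here. Each of 20171 loci was read from its brightest probe among those well above background on at least 2 of 6 arrays. Groups of genotype and treatment were fitted on all 6 arrays with limma 3.58.1 (R 4.3.3), using lmFit and eBayes with Benjamini-Hochberg adjustment. The counts by fold, and the lists, have no test beyond that fit. The script was tested on simulated data.

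Named genes were AGO2, AGO3, the 12 highest and 12 lowest loci past the 2-fold rule by the smaller of the lines' differences, up to 4 members per list with 1 sign in both lines, and counter-examples. Loci named outside this rule are identified as such or belong to a set given in full. The members, lists and rules were chosen with earlier results of these data known. The 31 lists hold 558 loci, of which 529 were measured.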

Additional observations from a re-analysis of the deposited data

Results flagged for a closer look

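The following 8 of the 24 loci named by the 2-fold rule had a difference from WT of 1 sign in both mock lines and of the opposite sign in both irradiated lines. The contrast between treatments was not tested, since each value rests on 2 mutant arrays and 1 WT array per treatment. Each value is the mean difference of ago2a and ago2c from WT (log2) in mock seedlings minus that in irradiated seedlings.

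Among loci higher in the mock-treated lines, this value was 6.05 for TPS2, 4.86 for AT4G08800, 4.25 for AT4G08760, 4.23 for AT1G56553 and 3.05 for AT1G09483. Among loci lower in them it was -6.05 for AT1G01450, -4.86 for RALFL2 and -4.81 for AT5G36001. All 8 were dim on the arrays of at least 1 genotype in mock seedlings. AT1G56553, AT4G08800, AT4G08760 and AT1G09483 were also dim on all 3 irradiated arrays, so their sign there lies between values at background. On the irradiated arrays TPS2 was well above background in WT alone, and AT1G01450, RALFL2 and AT5G36001 in ago2a alone. The values above are thus differences of measured signals that reach into background and not sizes of a change.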

How the results depend on the processing

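No locus passed limma under any setting run, with the smallest adjusted p at 0.0976 with no filter on dim probes and 0.118 with slide as a block, and between 73 (well above background on all 6 arrays) and 1589 loci (without ago2a) had an unadjusted p under 0.05. The counts of loci at least 2-fold apart in both lines moved with the handling of dim signals. Normexp background correction left 6 higher and 4 lower, probes well above background on all 6 arrays 2 and 7, and probes well above background on all 3 mock arrays, added after the data were seen, 2 and 8. With no filter 143 were lower. A 1.5-fold threshold gave 45 higher and 110 lower, and a 3-fold one 26 lower. Leaving out 1 line gave 156 to 247 higher and 89 to 769 lower loci, since a single array then decides. The number of lists with 1 sign in both lines was 13 with the mean of probes. The cause of these moves was not tested beyond what each setting's construction shows. Of the list medians, those in ago2a kept their sign in 28 to 30 of 30 lists and those in ago2c in 23 to 28 under 5 other settings. Scaling to the array median moved the median of all loci in ago2c to 0.18 against 0.04, and the lists that changed sign there are to be read relative to that shift. Line as a random block could not be fitted with 6 arrays in 4 groups and was not run. No paired analysis was possible because WT has 1 array per treatment, so the groups compared share fewer than 2 replicate numbers. Signal over background limits the folds of dim loci to bounds, and 1 WT array leaves the spread of WT unmeasured.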

Other observations

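Across all 20171 loci, differences from WT in mock seedlings were set beside those in irradiated seedlings, which share no array. Loci are not independent, so the coefficients are descriptions. For ago2c in both treatments Pearson's r was 0.59, for ago2c mock with ago2a irradiated 0.35, for ago2a in both treatments -0.05 and for ago2a mock with ago2c irradiated -0.33. Spearman's rho was 0.73, 0.61, -0.20 and -0.49 for the same 4 pairs. Disagreement of over 2-fold between a locus's probes, found at 0.142% of 5615 loci for ago2a mock, was found at 12.8% for ago2a irradiated and 13.2% for ago2c mock, each against its WT array. The part of this in the coefficients was not tested.

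Of 22 clock genes 15 (68.2%) lay on opposite sides of WT in the 2 lines, where 59.7% of all loci did, with medians of -0.10 in ago2a and 0.19 in ago2c. Of these 11 were below WT in ago2a and above it in ago2c, among them TOC1 with log2 differences of -0.26 in ago2a and 0.43 in ago2c, and GI with -0.18 in ago2a and 0.32 in ago2c. The other 4 lay the opposite way. LHY had log2 differences of 1.12 in ago2a and -0.74 in ago2c, and PRR9 had scaled signals of 134 in ago2a and 35.6 in ago2c, against 86.4 in WT, each with ago2a above WT and ago2c below it. LNK2 had 1347 in ago2a and 2895 in ago2c, against 1169 in WT, and CCA1 had 959.5 in ago2a and 855 in ago2c, against 738 in WT, each with both lines above WT. Of 15 genes of oxidative and mitochondrial stress 14 (93.3%) lay on opposite sides of WT in the 2 lines, where 59.7% of all loci did, with medians of 0.30 in ago2a and -0.36 in ago2c. AOX1A, the alternative oxidase of mitochondria, had 22939 in ago2a and 8018 in ago2c, against 14511 in WT, and UGT74E2 had 28889.8 in ago2a and 6340.3 in ago2c, against 16789 in WT.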
